A study of Sus scrofa with 23 samples.

Results

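Endothelial cells line the inside of every vessel, and the genes described here are the ones by which that lining is usually recognised. For that role 10 names were chosen, of 35228 gene names in each table: the junction and surface proteins PECAM1, CDH5, CLDN5, ESAM and EMCN, the receptor kinases TEK and TIE1, the nitric oxide synthase NOS3, the clotting protein VWF and the transcription factor ERG. A row counted as a member where its name was equal to a chosen name or was that name with a numbered ending. Of the 10 names, 8 had a row, and VWF had 2, VWF_1 and VWF_2, which gives 9 rows. CDH5 was not analysed here. EMCN had no row under its own name, and the row LOC100628129, whose number the reference gene table pairs with EMCN, is described beside the members but is counted with none of them.

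The RNA came from 3-mm coronary artery segments of Yorkshire swine, a farm pig. All animals had raised cholesterol, so there is no normal artery among the groups, and some were also diabetic. Histopathology had graded the lesions, and the 23 libraries of poly-A selected RNA gave 6 moderate and 4 severe segments with diabetes, and 4 mild, 4 moderate and 5 severe segments without diabetes. The sources used here do not say how diabetes was induced, the sex and age of the animals, or which segments shared an animal. The authors' deposited tables hold a mean normalized count per group and a DESeq2 test for each of 6 pairs of groups, and no value of a single library was used here. The spread between libraries therefore enters through the standard error of the authors' fit, given after ±, and n is the number of libraries above. The characteristics of severe non-diabetic replicate 5 call it moderate and diabetic, against its title. With the mild group set at 4, the deposited standard errors correspond to 6.006 moderate libraries with diabetes and 4.999 severe libraries without, so it was counted by its title, and results without it could not be computed.

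An endothelial cell holds to its neighbours through PECAM1, CDH5 and, in tight junctions, CLDN5 and ESAM. TEK is the receptor of the angiopoietins, TIE1 is its partner, and NOS3 makes the nitric oxide that relaxes the smooth muscle beneath and holds back platelets and leukocytes. VWF is stored in granules of the endothelium and binds platelets to an injured wall. ERG, of the ETS family, keeps endothelial genes switched on. In atherosclerosis the endothelium over a lesion lets lipoprotein and leukocytes through, and less nitric oxide is a classic sign of its dysfunction. The genes are not exclusive to it: PECAM1 is also made by platelets and leukocytes, VWF by megakaryocytes, and TEK by some macrophages.

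Segments without diabetes were lower in some endothelial genes at moderate and severe grade than at mild grade, and were higher in ERG. PECAM1 fell in both comparisons with mild segments, NOS3 fell in severe segments, and ERG rose in severe segments. The other 6 rows passed neither comparison with mild segments. In neither comparison of diabetic with non-diabetic segments of the same grade did any of the 9 rows pass the threshold of an adjusted p under 0.05.

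**Figure D1:**
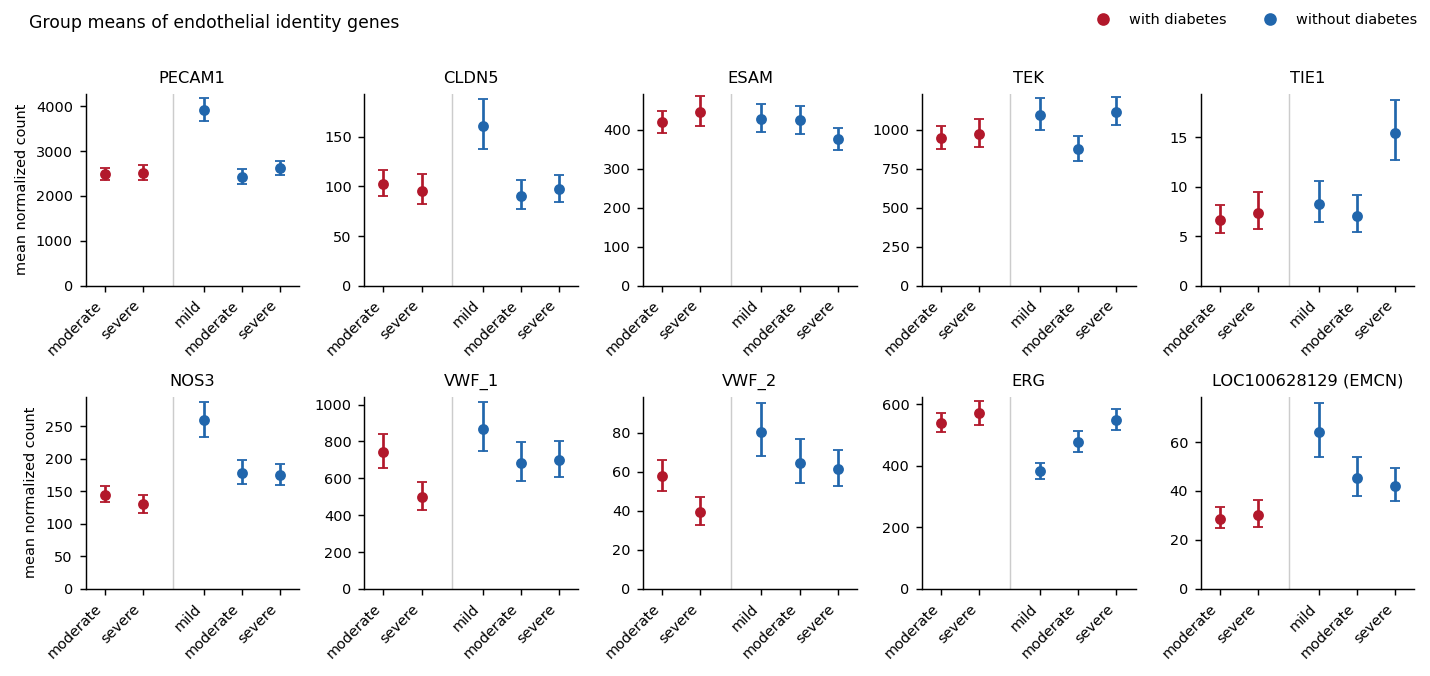
Mean normalized count (linear axis from 0) of each endothelial identity row in the 5 groups, with diabetes in red and without in blue. Bars are 1 standard error of the fitted group level, solved from the deposited standard errors. PECAM1, NOS3 and CLDN5 have their highest mean in mild segments and ERG has its lowest there.

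Among the adhesion and junction genes, PECAM1 (chr12:14667643-14723296, Sscrofa11.1) averaged 2488 normalized counts in moderate and 2517 in severe segments with diabetes, against 3922 in mild, 2430 in moderate and 2618 in severe segments without diabetes. Mild segments stood apart and the other 4 group means lay close together. The authors' deposited table puts PECAM1 0.619-fold in moderate against mild segments without diabetes (log2 -0.69 ± 0.13, DESeq2 adjusted p = 2.15e-05). Severe against mild segments gave 0.668-fold in the authors' deposited table (log2 -0.58 ± 0.13, DESeq2 adjusted p = 0.00012). A lower level in such tissue RNA can come, among other things, from fewer endothelial cells or from less RNA in each, and these cannot be told apart. CLDN5 (chr14:51161490-51162382), a claudin that seals tight junctions, averaged 102 normalized counts in moderate and 95.8 in severe segments with diabetes, against 161 in mild, 90.5 in moderate and 96.9 in severe segments without diabetes. Its order of groups had mild at the top, as for PECAM1, and its spread was wider: the modelled variation between libraries of a group was 29.8% of the mean for CLDN5, 12.9% for PECAM1 and 19.6% as the median of the 12194 genes whose 5 group means all reached 50. CLDN5 did not pass the test in the authors' deposited tables, at log2 -0.85 ± 0.32 in moderate (DESeq2 adjusted p = 0.112) and -0.74 ± 0.30 in severe against mild segments (DESeq2 adjusted p = 0.0947).

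ESAM (chr9:51983019-51992415), an adhesion molecule of endothelial tight junctions and platelets, averaged 418 normalized counts in moderate and 446 in severe segments with diabetes, against 428 in mild, 424 in moderate and 375 in severe segments without diabetes. No pair of groups differed past the threshold for ESAM. In the authors' deposited table, moderate against mild segments gave a log2 fold change of -0.01 for ESAM with a 95% interval from -0.35 to 0.33. The row LOC100628129, paired with EMCN, a mucin-like protein of capillary and venous endothelium, averaged 28.7 normalized counts in moderate and 30.2 in severe segments with diabetes, against 64.0 in mild, 45.2 in moderate and 42.2 in severe segments without diabetes. Its means in diabetic segments were below those of every non-diabetic group, but no test in the authors' deposited tables passed: LOC100628129 stood at log2 -0.66 ± 0.33 in moderate segments with against without diabetes (DESeq2 adjusted p = 0.176). Set against mild segments without diabetes, with the computed test described further on, LOC100628129 was lower in moderate (log2 -1.15 ± 0.33, adjusted p = 0.0019 by a Wald test) and in severe segments with diabetes (log2 -1.06 ± 0.36, adjusted p = 0.0128 by a Wald test).

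Of the receptor kinases, TEK (chr1:195938177-196052294) averaged 947 normalized counts in moderate and 975 in severe segments with diabetes, against 1097 in mild, 878 in moderate and 1116 in severe segments without diabetes. Severe and mild segments without diabetes were level for TEK, with a log2 fold change of 0.03 and a 95% interval from -0.32 to 0.37 in the authors' deposited table. TIE1 (chr6:167919662-167947253) was close to the limit of these libraries, with 6.59 normalized counts in moderate and 7.34 in severe segments with diabetes, against 8.28 in mild, 7.03 in moderate and 15.4 in severe segments without diabetes. These means stand for about 32.8 reads over all 4 mild libraries and 77.8 over the 5 severe libraries without diabetes. Severe segments without diabetes held the highest TIE1 mean, and no test of TIE1 in the authors' deposited tables passed: severe against moderate segments gave log2 1.08 ± 0.47 (p = 0.021, DESeq2 adjusted p = 1).

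NOS3 (chr18:6209218-6228912) averaged 145 normalized counts in moderate and 130 in severe segments with diabetes, against 259 in mild, 178 in moderate and 176 in severe segments without diabetes. It had its highest mean in mild segments and its lowest in both diabetic groups. In the authors' deposited table NOS3 was 0.674-fold in severe against mild segments without diabetes (log2 -0.57 ± 0.20, DESeq2 adjusted p = 0.0399). That call was lost when every gene with a deposited p entered the adjustment (adjusted p = 0.0588) and when fold changes were centred on their median (adjusted p = 0.0561). Moderate against mild segments gave a like size for NOS3 in the authors' deposited table that did not pass (log2 -0.54 ± 0.21, DESeq2 adjusted p = 0.136).

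VWF was counted as VWF_1 and VWF_2, and reads may be split between them; the reference table places VWF at chr5:64516627-64655938. VWF_1 averaged 743 normalized counts in moderate and 497 in severe segments with diabetes, against 870 in mild, 685 in moderate and 698 in severe segments without diabetes. VWF_2 averaged 57.7 normalized counts in moderate and 39.3 in severe segments with diabetes, against 80.7 in mild, 64.7 in moderate and 61.3 in severe segments without diabetes. Both rows were highest in mild segments and lowest in severe segments with diabetes. VWF_2 made 7.77 counts per 100 of VWF_1 in moderate and 7.90 in severe segments with diabetes, against 9.27 in mild, 9.44 in moderate and 8.79 in severe segments without diabetes. Severe against moderate segments with diabetes gave log2 -0.58 ± 0.28 for VWF_1 and -0.55 ± 0.32 for VWF_2 in the authors' deposited table, and neither passed (p = 0.0422 and p = 0.0905, DESeq2 adjusted p = 1 for both).

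ERG (chr13:201999237-202302572) went the other way. It averaged 540 normalized counts in moderate and 572 in severe segments with diabetes, against 383 in mild, 478 in moderate and 549 in severe segments without diabetes. Mild segments had the lowest ERG mean of all groups, with the variation between libraries modelled at 13.2% of the mean. The authors' deposited table puts ERG 1.43-fold in severe against mild segments without diabetes (log2 0.52 ± 0.14, DESeq2 adjusted p = 0.0028) and 1.25-fold in moderate against mild segments, which did not pass (log2 0.32 ± 0.14, DESeq2 adjusted p = 0.22). Per 100 counts of PECAM1 there were 21.7 of ERG in moderate and 22.7 in severe segments with diabetes, against 9.76 in mild, 19.7 in moderate and 21.0 in severe segments without diabetes. A test of this ratio needs values per library and was not made.

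**Figure D2:**
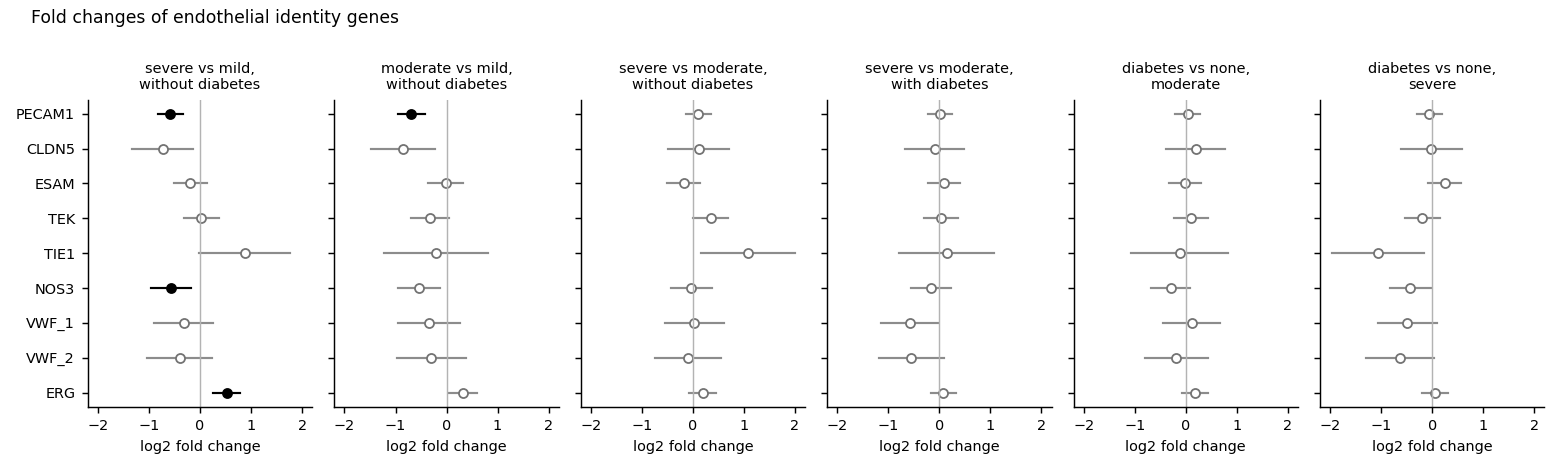
Log2 fold change with its 95% interval for the 9 endothelial identity rows in the 6 deposited comparisons, the group named before vs over the group after it. Filled points passed an adjusted p under 0.05: PECAM1, NOS3 and ERG in severe against mild, and PECAM1 in moderate against mild segments.

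Counted over the rows, moderate against mild segments without diabetes had 1 of 9 lower and 0 higher, where 4.63% of all 18561 genes tested passed, 1.08% lower and 3.56% higher. Severe against mild segments had 2 of 9 lower and 1 higher, where 12% of 20294 genes passed, 4.8% lower and 7.19% higher. The median log2 fold change of the rows was -0.32 in both comparisons, against 0.00 for all genes tested in moderate and -0.03 in severe against mild segments. Both comparisons use the same 4 mild libraries. Severe against moderate segments had 0 of 9 rows past the threshold with diabetes, where 0.00332% of 30151 genes passed, all of them higher (0% lower). Without diabetes 0 of 9 rows passed, where 0.0203% of 19716 genes did, 0.00507% higher and 0.0152% lower. At an unadjusted p under 0.05 there was 1 row with diabetes, VWF_1, beside 864 of the 30151 genes. Without diabetes there were 2 such rows, TEK and TIE1, beside 745 of the 19716 genes.

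Diabetes was compared within grade. Of the 9 rows, 0 passed in moderate segments with against without diabetes, where 16.7% of 22025 genes did (8.2% higher and 8.46% lower). An unadjusted p under 0.05 was found there for 0 of the 9 rows and for 6227 of the 22025 genes. In severe segments 0 of 9 passed, where 10.7% of 20869 genes did (5.75% higher and 4.92% lower). TIE1 and NOS3 had an unadjusted p under 0.05 in severe segments, as did 5065 of the 20869 genes. TIE1 stood at log2 -1.06 ± 0.46 there (DESeq2 adjusted p = 0.122 in the authors' deposited table). Diabetes against none in moderate segments gave 95% intervals for the fold of 0.869 to 1.21 for PECAM1, 0.945 to 1.35 for ERG, 0.794 to 1.22 for ESAM and 0.857 to 1.36 for TEK, from the authors' deposited table. They were wider for NOS3 (0.624 to 1.06), VWF_1 (0.736 to 1.6), VWF_2 (0.572 to 1.36), CLDN5 (0.767 to 1.71) and TIE1 (0.477 to 1.77) in the same table. NOS3 in severe segments stood at log2 -0.43 ± 0.20 (DESeq2 adjusted p = 0.171) and VWF_1 at -0.49 ± 0.30 (DESeq2 adjusted p = 0.311) in the authors' deposited table.

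The diabetes effect in severe minus that in moderate segments was computed from the deposited values and tested by a two-sided Wald test with Benjamini-Hochberg adjustment. TIE1 was too low to enter, and 0 of the other 8 rows passed, where 0.0114% of 17493 genes did, 0.00572% higher and 0.00572% lower. An unadjusted p under 0.05 was reached by 0 of 9 rows and by 706 of the 17493 genes. Among those 8, VWF_1 had the smallest p, at log2 -0.60 ± 0.41 (adjusted p = 0.999 by that test), and TIE1 stood at log2 -0.94 ± 0.67 with no adjusted p.

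Pairs of groups with no deposited table were computed from the others with the same Wald test, and they differ in grade and diabetes at once. TIE1 was below the minimum mean of 10 for these tests, which leaves 8 rows. Severe segments with diabetes against mild segments without diabetes had 4 of 8 rows lower and 1 higher, where 33.5% of 17493 genes passed, 16.1% lower and 17.4% higher. The 4 lower rows include both VWF rows, so this gene is counted more than once. NOS3 stood at 0.501-fold (log2 -0.997 ± 0.21, adjusted p = 2.96e-05 by the Wald test with Benjamini-Hochberg adjustment) and PECAM1 at 0.642-fold (log2 -0.64 ± 0.13, adjusted p = 1.58e-05 by that test). VWF_1 stood at 0.571-fold (adjusted p = 0.0318 by that test, and 0.0507 with no minimum mean, which ends the call), VWF_2 at 0.49-fold (adjusted p = 0.0133 by that test) and ERG at 1.49-fold (adjusted p = 0.000403 by that test). Moderate segments with diabetes against mild segments without diabetes had 2 of 8 lower, PECAM1 and NOS3, and 1 higher, ERG, where 41.8% of genes passed, 21.4% lower and 20.4% higher. Severe segments with diabetes against moderate segments without, and moderate segments with diabetes against severe segments without, had 0 of 8 past the threshold. TIE1 stood at log2 -1.20 ± 0.42 in moderate segments with diabetes against severe segments without, and passed when no minimum mean was set (adjusted p = 0.0392 by the Wald test over all 30151 genes with a p). Of all genes 13% passed in the first of these pairs (7.01% higher, 5.95% lower) and 19.9% in the other (10.1% higher, 9.78% lower). When the 5 groups were put in order of level for each row, 1 of 36 pairs of neighbours differed at an adjusted p under 0.05, which was mild over severe segments without diabetes for PECAM1 (DESeq2 adjusted p = 0.00012 in the authors' deposited table). Neighbours in such an order have the smallest gaps by construction, and no share of all genes is set beside this count. The count is therefore a description. For 2 pairs of TIE1 there was no adjusted p, and the unadjusted p was above 0.05.

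Among other endothelial surface genes, 6 of 22 measured were lower in severe against mild segments without diabetes, where 4.8% of all genes were. There 1 was higher, where 7.19% of all genes were, and the median log2 fold change was -0.22. In moderate against mild segments 0 were higher and 1 was lower, where 3.56% and 1.08% of all genes were. CAV1, the coat protein of caveolae that also restrains NOS3, averaged 3936 normalized counts in severe and 6807 in mild segments (log2 -0.79 ± 0.20, DESeq2 adjusted p = 0.00201 in the authors' deposited table). CD34, a sialomucin of endothelial and progenitor cells, stood at log2 -0.83 ± 0.23 (DESeq2 adjusted p = 0.00628 in the authors' deposited table), and ECSCR, an endothelial surface protein, at -0.84 ± 0.24 (DESeq2 adjusted p = 0.00755 in that table). The member that rose was ICAM2, a ligand of leukocyte integrins listed as ICAM-2, at 0.86 ± 0.22 (DESeq2 adjusted p = 0.00208 in the authors' deposited table). KDR, the main VEGF receptor, averaged 669 normalized counts in severe and 749.5 in mild segments and did not pass (DESeq2 adjusted p = 0.601 in the authors' deposited table; named after its values were seen).

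With diabetes, 5 of these 22 were higher and 2 lower in moderate segments, where 8.2% of all genes were higher and 8.46% lower. In severe segments 3 were higher and 1 lower, where 5.75% of all genes were higher and 4.92% lower. ICAM-2 averaged 571 normalized counts in moderate segments with diabetes against 233 without (log2 1.30 ± 0.21, DESeq2 adjusted p = 8.35e-08 in the authors' deposited table). THBD, the thrombin-binding thrombomodulin, averaged 905 with diabetes against 468 without (log2 0.96 ± 0.19, DESeq2 adjusted p = 2.47e-05 in that table). CAV1 fell, to 2627 with diabetes against 4601 without (log2 -0.81 ± 0.19, DESeq2 adjusted p = 0.000771 in that table). In severe segments ICAM-2 (log2 0.97 ± 0.21), THBD (0.68 ± 0.20) and ACVRL1, a receptor for BMP9 (0.57 ± 0.19), were higher with diabetes, with DESeq2 adjusted p of 0.000439, 0.0111 and 0.0299 in the authors' deposited table. Of the 22, 0 passed the test of the difference between both diabetes effects.

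Endothelial transcription factors beside ERG had 0 of 20 higher and 4 lower in severe against mild segments without diabetes. There 7.19% of all genes were higher and 4.8% lower. In moderate against mild segments 0 of the 20 passed, where 3.56% of all genes were higher and 1.08% lower. LMO2, a partner of TAL1, stood at log2 -0.83 ± 0.22 (DESeq2 adjusted p = 0.00417) and HEY1, a Notch target of arterial endothelium, at -0.89 ± 0.28 (DESeq2 adjusted p = 0.0198) in severe against mild segments in the authors' deposited table. FLI1, an ETS factor closely related to ERG, averaged 977 normalized counts in severe and 782 in mild segments and did not pass (log2 0.32 ± 0.25, DESeq2 adjusted p = 0.471 in the authors' deposited table; named after its values were seen). With diabetes 4 of 20 were higher in moderate and 3 in severe segments, and 0 were lower in either. The shares of all genes were 8.2% higher and 8.46% lower in moderate, and 5.75% higher and 4.92% lower in severe segments. KLF4, a factor induced by laminar flow and also made by smooth muscle and macrophages, averaged 639 normalized counts in moderate segments with diabetes against 310 without (log2 1.05 ± 0.24, DESeq2 adjusted p = 0.000394 in the authors' deposited table). TAL1, a factor of blood and endothelial lineages, averaged 249.5 in severe segments with diabetes against 83.2 without (log2 1.59 ± 0.36, DESeq2 adjusted p = 0.000656 in that table).

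**Figure D3:**
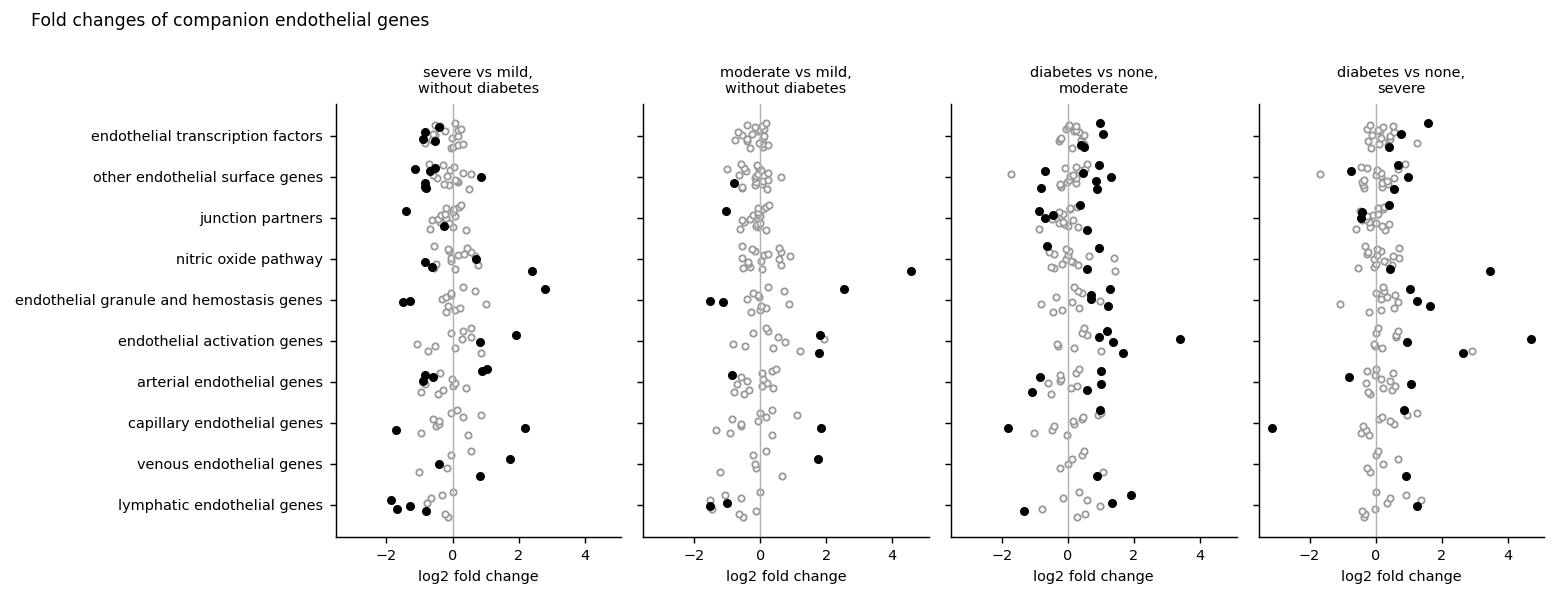
Log2 fold change of each measured gene of 10 companion lists (rows) in 4 deposited comparisons, the group named before vs over the group after it. Filled points passed an adjusted p under 0.05, and the height within a row has no meaning. Endothelial activation genes that passed were higher in all 4, 2 of 12 in each comparison with mild segments, 5 with diabetes in moderate and 3 in severe segments. Higher among all genes were 3.56% in moderate and 7.19% in severe against mild segments. With diabetes these shares were 8.2% in moderate and 5.75% in severe segments.

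The angiopoietin, VEGF and Notch signals had 0 of 12 measured past the threshold in either comparison with mild segments. Of all genes tested, 4.63% passed there in moderate and 12% in severe segments. ANGPT2, which competes for TEK and is stored with VWF, averaged 757 normalized counts in severe and 721 in mild segments without diabetes (DESeq2 adjusted p = 0.851 in the authors' deposited table; named after its values were seen). With diabetes 1 of the 12 was higher in moderate segments, the Notch ligand DLL4 (log2 0.57 ± 0.21, DESeq2 adjusted p = 0.0384 in the authors' deposited table), and 1 was lower, the peptide APLN (log2 -1.02 ± 0.33, DESeq2 adjusted p = 0.0161 in that table). In severe segments 0 passed. For all genes the shares with diabetes were 8.2% higher and 8.46% lower in moderate, and 5.75% and 4.92% in severe segments. Of 19 junction partners, 0 were higher and 2 lower in severe against mild segments without diabetes, where 7.19% and 4.8% of all genes were. The tight junction protein OCLN averaged 43.4 normalized counts in severe and 117 in mild segments (log2 -1.42 ± 0.28, DESeq2 adjusted p = 1.76e-05 in the authors' deposited table), and the catenin CTNNA1 stood at log2 -0.27 ± 0.09 (DESeq2 adjusted p = 0.018 in that table). OCLN also fell in moderate against mild segments, where 1 of the 19 passed (log2 -1.03 ± 0.29, DESeq2 adjusted p = 0.0144 in the authors' deposited table). Under diabetes 2 of the 19 were higher and 3 lower in moderate segments, and 1 was higher and 2 lower in severe segments.

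Around NOS3, 1 of 18 measured genes of the nitric oxide pathway was higher and 0 lower in moderate, and 2 were higher and 2 lower in severe against mild segments without diabetes. For all genes these shares were 3.56% higher and 1.08% lower in moderate, and 7.19% higher and 4.8% lower in severe segments. ARG1, an arginase that uses the same substrate as NOS3 and is also made by myeloid cells, averaged 130 normalized counts in moderate and 5.485 in mild segments (log2 4.58 ± 0.80, DESeq2 adjusted p = 1.8e-06 in the authors' deposited table). GUCY1A2, a subunit of the receptor for nitric oxide, stood at log2 -0.84 ± 0.29 in severe against mild segments (DESeq2 adjusted p = 0.0391 in the authors' deposited table). Under diabetes 2 of 18 were higher and 1 lower in moderate segments, where 8.2% and 8.46% of all genes were. In severe segments 2 were higher and 0 lower, where 5.75% and 4.92% of all genes were. ARG2, the other arginase, rose in both, at log2 0.58 ± 0.13 in moderate (DESeq2 adjusted p = 0.000419) and 0.42 ± 0.14 in severe segments (DESeq2 adjusted p = 0.0294) in the authors' deposited tables.

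Around VWF, the granule and hemostasis list of 14 had 1 higher and 2 lower in each comparison with mild segments. In severe against mild segments these were STX3, a fusion protein that serves other cells too (log2 2.81 ± 0.31), TFPI, an inhibitor of clotting listed as LOC100155068 (log2 -1.49 ± 0.29), and MMRN1, a granule protein of platelets and endothelium (log2 -1.28 ± 0.45), with DESeq2 adjusted p of 4.12e-17, 7.86e-06 and 0.0405 in the authors' deposited table. With diabetes 4 of the 14 were higher in moderate and 3 in severe segments, and 0 were lower. The shares of all genes were 8.2% higher and 8.46% lower in moderate, and 5.75% and 4.92% in severe segments. Against mild segments they were 3.56% higher and 1.08% lower in moderate, and 7.19% and 4.8% in severe segments.

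Of 12 genes tied to endothelial activation, 2 were higher and 0 lower in each comparison with mild segments. Their median log2 fold changes were 0.45 in moderate and 0.30 in severe segments. For all genes the shares were 3.56% higher and 1.08% lower in moderate, and 7.19% higher and 4.8% lower in severe segments. SELE, the E-selectin that cytokines induce in endothelium, averaged 68.4 normalized counts in moderate and 72.8 in severe segments without diabetes, against 19.3 in mild segments. Its log2 fold changes were 1.82 ± 0.47 in moderate and 1.92 ± 0.45 in severe against mild segments in the authors' deposited tables, with DESeq2 adjusted p of 0.00494 and 0.000464. With diabetes 5 of the 12 were higher and 0 lower in moderate segments, where 8.2% of all genes were higher and 8.46% lower. In severe segments 3 were higher and 0 lower, where 5.75% of all genes were higher and 4.92% lower. In each of these comparisons 11 of the 12 had an adjusted p. ICAM-1, a leukocyte adhesion molecule that other cells of the wall make as well, averaged 832 normalized counts in moderate segments with diabetes against 322 without (log2 1.37 ± 0.25, DESeq2 adjusted p = 4.54e-06 in the authors' deposited table). SELE did not pass for diabetes in moderate (DESeq2 adjusted p = 0.357) or severe segments (DESeq2 adjusted p = 0.383) in the authors' deposited tables.

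By type of vessel, 0 of 14 arterial genes were higher and 1 lower in moderate, and 2 were higher and 3 lower in severe against mild segments without diabetes. For all genes the shares were 3.56% higher and 1.08% lower in moderate, and 7.19% higher and 4.8% lower in severe segments. SEMA3G, a semaphorin of arterial endothelium, averaged 378 normalized counts in moderate and 387 in severe segments, against 684 in mild segments, with DESeq2 adjusted p of 0.0286 and 0.0131 in the authors' deposited tables. With diabetes 3 of the 14 were higher and 2 lower in moderate segments, where 8.2% and 8.46% of all genes were. In severe segments 1 was higher and 1 lower, where 5.75% and 4.92% of all genes were. Of 12 capillary genes, 1 was higher and 0 lower in moderate, and 1 was higher and 1 lower in severe against mild segments. CA4, a carbonic anhydrase of capillaries, was the one higher in both, at 124 normalized counts in severe and 27.9 in mild segments (log2 2.18 ± 0.45, DESeq2 adjusted p = 3.9e-05 in the authors' deposited table). Under diabetes CA4 was lower, at 14.0 normalized counts in severe segments with diabetes against 124 without (log2 -3.15 ± 0.46, DESeq2 adjusted p = 9.05e-09 in that table). Each diabetes comparison had 1 capillary gene higher and 1 lower.

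Of 7 venous genes, 1 was higher and 0 lower in moderate, and 2 were higher and 1 lower in severe against mild segments, and 1 was higher and 0 lower with diabetes in each grade. Those higher in severe against mild segments, POSTN (log2 1.76 ± 0.31) and CLU (log2 0.82 ± 0.29) in the authors' deposited table, are also genes of fibroblasts and smooth muscle. For this list and those below, 3.56% of all genes were higher and 1.08% lower in moderate against mild segments. In severe against mild segments 7.19% were higher and 4.8% lower. With diabetes the shares were 8.2% higher and 8.46% lower in moderate, and 5.75% and 4.92% in severe segments. Of 10 lymphatic genes 0 were higher and 2 lower in moderate, and 0 were higher and 4 lower in severe against mild segments. LYVE1, a hyaluronan receptor that resident macrophages share, averaged 286 normalized counts in severe and 910 in mild segments (log2 -1.67 ± 0.48, DESeq2 adjusted p = 0.00719 in the authors' deposited table). Under diabetes 2 of the 10 were higher and 1 lower in moderate, and 1 was higher and 0 lower in severe segments. Genes tied to a shift from endothelium to mesenchyme had 3 of 14 higher and 0 lower in moderate, and 4 higher and 0 lower in severe against mild segments. With diabetes 3 of the 14 were higher and 1 lower in moderate, and 2 were higher and 0 lower in severe segments. SNAI1, a repressor of cadherin genes listed as LOC396583, averaged 81.6 normalized counts in moderate segments with diabetes against 26.1 without (log2 1.64 ± 0.28, DESeq2 adjusted p = 6.54e-07 in the authors' deposited table).

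Summed levels of markers of other cells differed between the same groups, and not all of their members passed a test. Summed over 20 measured heart muscle markers, the groups held 3768 normalized counts in moderate and 5468 in severe segments with diabetes, against 187626 in mild, 49897 in moderate and 44099 in severe segments without diabetes. NPPA and NPPB, which the tables list as BNP, were at 0 in at least 1 group. Of these 20, 16 were lower with diabetes in moderate and 13 in severe segments, and 0 were lower in moderate and 1 in severe against mild segments. In each of these comparisons 16 of the 20 had an adjusted p. Lower among all genes were 8.46% with diabetes in moderate and 4.92% in severe segments. Against mild segments 1.08% of all genes were lower in moderate and 4.8% in severe segments. PECAM1 was highest in mild segments, as were the sums of heart muscle, adipocyte, fibroblast, contractile smooth muscle, pericyte and lymphatic genes. The macrophage and platelet sums were lowest there. The 10 adipocyte markers summed to 2162 normalized counts in moderate and 2925 in severe segments with diabetes, against 8520 in mild, 4690 in moderate and 4751 in severe segments without diabetes, with 0 of the 10 past the threshold in either comparison with mild segments and 1 lower with diabetes in moderate segments. The 14 macrophage markers summed to 31849 normalized counts in moderate and 34676 in severe segments with diabetes, against 14461 in mild, 21822 in moderate and 28524 in severe segments without diabetes, with 7 higher in moderate and 9 higher and 1 lower in severe against mild segments. With diabetes 8 of the 14 macrophage markers were higher in moderate and 2 in severe segments, where 8.2% and 5.75% of all genes were. Against mild segments 3.56% of all genes were higher in moderate and 7.19% in severe segments.

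The 9 fibroblast markers summed to 132434 normalized counts in moderate and 143140 in severe segments with diabetes, against 228281 in mild, 153330 in moderate and 148111 in severe segments without diabetes. Against mild segments 1 of the 9 was lower in moderate and 5 in severe segments, where 1.08% and 4.8% of all genes were, and 0 were higher. With diabetes 1 of the 9 was higher and 0 lower in each grade. Contractile smooth muscle markers, 11 measured, summed to 89631 in moderate and 93286 in severe segments with diabetes, against 128710 in mild, 105673 in moderate and 90008 in severe segments without diabetes. Against mild segments 0 of the 11 passed in moderate, and 3 were lower and 0 higher in severe segments. With diabetes 3 were lower in moderate and 1 in severe segments, where 8.46% and 4.92% of all genes were. Pericyte markers, 8 measured, summed to 11243 in moderate and 9935 in severe segments with diabetes, against 17789 in mild, 15494 in moderate and 13354 in severe segments without diabetes. Of these 8, 1 was higher and 3 lower in severe against mild segments, among them RGS5 (log2 -1.02 ± 0.33, DESeq2 adjusted p = 0.0215 in the authors' deposited table). There 7.19% of all genes were higher and 4.8% lower. Platelet and megakaryocyte markers were low throughout, 7 genes summing to 71.8 normalized counts in moderate and 56.7 in severe segments with diabetes, against 52.2 in mild, 60.1 in moderate and 67.8 in severe segments without diabetes. Of the 7, 0 passed in any of the 6 deposited comparisons. Only 3 of the 7 had an adjusted p in each comparison of grades without diabetes, and 4 in each diabetes comparison. The others could not pass there. All 7 had one in severe against moderate segments with diabetes. The part of these cells in the endothelial results was not tested.

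**Figure D4:**
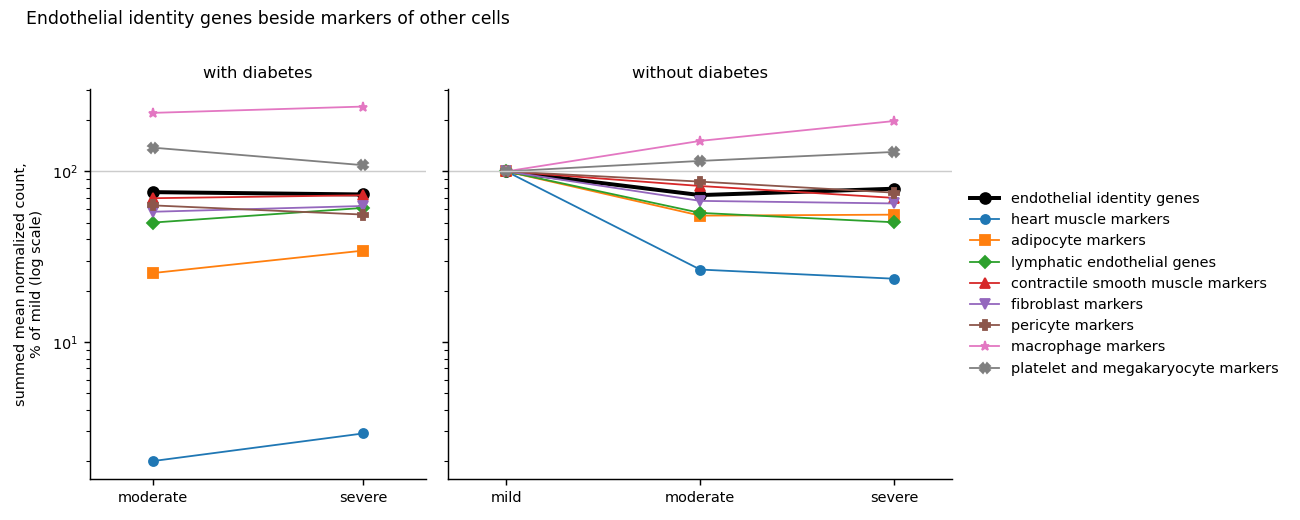
Summed mean normalized count of the endothelial identity rows (thick black line) and of 8 marker lists, each as percent of its sum in mild segments, on a log axis. Diabetic groups are on the left and non-diabetic groups on the right. Among the lists drawn, the heart muscle sum spans the widest range.

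All 9 endothelial rows together made 0.048% of all normalized counts in moderate and 0.0452% in severe segments with diabetes, against 0.0616% in mild, 0.0458% in moderate and 0.0519% in severe segments without diabetes. PECAM1 made 45.7% of that sum in moderate and 47.7% in severe segments with diabetes, against 54.4% in mild, 46.4% in moderate and 45.9% in severe segments without diabetes. Without PECAM1, the sum of the other rows stood at 90.0% of mild in moderate and 84.0% in severe segments with diabetes, and at 85.4% in moderate and 93.9% in severe segments without diabetes.

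Likeness to PECAM1 was measured over the 5 group means, on the log2 scale after centring each gene, among the same 12194 genes. Among the members CLDN5 was nearest, with a root mean square difference of 0.0662 and 0.189% of those genes nearer. It was followed by NOS3 (0.176, 8.87% nearer), TEK (0.205, 15.4%), VWF_1 (0.223, 20.8%), ESAM (0.263, 33.8%) and ERG (0.454, 81.0%). VWF_2 and TIE1 did not reach a mean of 50 in every group and were not ranked. The 5 genes on no list that were nearest were STARD7 (0.0308), BSG (0.045), TRIP10 (0.0463), UST (0.0492) and ASF1A (0.0509). TRIP10 averaged 331 normalized counts in moderate and 328 in severe segments with diabetes, against 505 in mild, 330 in moderate and 323 in severe segments without diabetes. UST and TRIP10 were lower in both comparisons with mild segments, and STARD7, BSG and ASF1A passed in neither. The group means share a normalization, and this ranking is a description.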

How the data were processed

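RNA of the 23 segments was isolated with Trizol, poly-A selected and primed at random, per the labels' protocols. DESeq2 and the build Sscrofa11.1 are named in the submitters' processing notes. The sources used here name no aligner, counter or annotation. Per the file headers, each of the authors' 6 tables holds, for both groups, a mean of normalized counts (signal, at least 0), a log2 fold change with its standard error, a p-value and an adjusted p. The authors deposited a test score in 3 tables, with a sign opposite to the fold change, and it was not used. In the other 3 tables names with no fit carry a spreadsheet error mark in the authors' deposited fold change column. Of 35252 lines, 24 held a date in place of a name and were left out, and 5042 of the rest had no fold change. Adjusted p-values called DESeq2's are those the authors deposited, with a threshold of 0.05.

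Computed here were the group variances, solved from the deposited standard errors, and from them the errors of the levels, 4 further pairs of groups and the difference of both diabetes effects. These had two-sided Wald tests with Benjamini-Hochberg adjustment across the 17493 genes that reached a mean of 10 over the groups. The same Wald test gave the deposited p to within 4.39e-15. Scripts were tested on simulated data. Of 257 genes on 19 companion lists, 239 were matched, by name, name with a numbered ending, gene number or synonym. Library totals, read from the steps that single reads leave in low means, were about 6718571 to 14965050 reads. A total of 3 counts in a group corresponds to a mean of 0.474 to 0.757, counting error only. No label says which segments share an animal. The tests set differences of groups against the spread between segments, as if each segment were independent. Some of that spread may lie within an animal, and animals shared within or between groups are not taken into account. The members and lists were chosen with earlier results of these data known. From each companion list the text names genes among the 4 smallest adjusted p-values past the threshold in a comparison, or the 2 smallest p-values where none passed; any other is marked in the text. Gene positions are 1-based, from the RefSeq table of the same build. Python 3.11.15, pandas 2.3.3, NumPy 2.4.6, SciPy 1.17.1 and matplotlib 3.10.9 were used.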

Additional observations from a re-analysis of the deposited data

How the results depend on the processing

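For the 6 deposited comparisons, the number of member rows past the threshold stayed within 1.5 times of the reported one when adjustment covered every gene with a p or those reaching a mean of 10, when fold changes were centred on their median, at adjusted p thresholds of 0.1 and 0.01, and with numbered copies left out. It ranged from 2 to 4 rows in severe against mild segments, NOS3 being lost and, at 0.1, CLDN5 gained. Leaving out the numbered copies could not change these numbers, because neither VWF row passed in any of the 6 deposited comparisons. The computed pairs had 8 calls under both other filters on the mean, but with no filter VWF_1 in severe segments with diabetes against mild segments was lost (adjusted p = 0.0507) and TIE1 in moderate segments with diabetes against severe segments without was gained (adjusted p = 0.0392), and the difference of diabetes effects kept 0. Centring shifted fold changes by at most 0.0771 (log2) and turned the sign of 3 of 54 values, none past the threshold: PECAM1 in severe against moderate segments with diabetes (-0.0204) and in moderate segments with against without diabetes (-0.000386), and ERG in severe segments with against without diabetes (-0.0194). Log2 ratios of the group means differed from the deposited fold changes by at most 0.05. No paired analysis was possible because no value per library was used here; for that reason leaving out each replicate, or severe non-diabetic replicate 5, was not run. Depth limits TIE1 most.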
